A study of Mus musculus with 18 samples.

Results

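The tumour suppressor p53 is a transcription factor that is held low by its inhibitors and, once stabilised, binds its response element at genes of cell cycle arrest, apoptosis, DNA repair and metabolism. Here 35 genes of this pathway, p53 itself (Trp53) with its regulators and its target genes, were followed in regulatory T cells (Tregs) without CHD8, an ATP-dependent chromatin remodeler that is known to bind p53 and to limit its activity at target genes. The members were set by name from knowledge of the pathway, with no measured value in the rule. Earlier results of these data were known when they were chosen. All 35 were found among the 35865 genes listed under a single name in the RNA-seq table. Of these, 33 passed the filter on low values and were tested among 15240 genes. The remaining 2, Eda2r and Dram1, lay at or near 0.

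YFP+ Tregs were sorted from splenic CD4+ T cells, and RNA-seq was carried out on 2 WT and 2 Chd8-/- libraries, with 1 library per mouse. The mutant mice carried 2 floxed Chd8 alleles (Chd8 Flox/Flox), and recombination was driven by Foxp3 YFP-Cre, a fusion of YFP and iCre expressed from the X-linked Foxp3 gene, so that deletion is directed to cells that express Foxp3. The WT mice carried the same Cre and, in the description of the study, intact Chd8 alleles (Chd8+/+), while the labels of the WT libraries name floxed Chd8 with heterozygous Foxp3 YFP-Cre. The labels also give a poly IC injection for both genotypes. Genotyping of mutant Tregs isolated as CD4+CD25+ cells, not of the sorted YFP+ cells, left a faint band of the floxed allele. The study names the few non-Tregs in that isolate as its likely source. Mutant mice and their WT littermates were sex-matched and 5 to 7 weeks old. According to the description of the study, each genotype was represented by both sexes. Xist was listed between 500.2 and 843.3 TPM in the 4 libraries, and the Y-linked genes Ddx3y, Kdm5d, Eif2s3y and Uty were listed at 0 in all 4. No library thus showed the RNA of a male mouse, which conflicts with the sexes described. Chd8 was listed at 14.9 and 11.4 TPM in the mutant against 24.7 and 27.6 TPM in the WT libraries, and these values cover the whole gene, not the floxed exons alone.

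TPM, a unit of transcript abundance, scales the reads of a gene by its length and by the library. It is a share of the library, so a value also depends on the other RNA that the library holds. The number of reads behind each value is not kept in this unit, and no counting error is given. Treg and CD4 T cell markers summed to between 3680.4 and 4510.9 TPM in the 4 libraries, and Foxp3 was listed between 202.8 and 232.1 TPM. Markers of other spleen cells separated the Chd8-/- libraries from each other. The 8 myeloid markers summed to 33.2 and 1487.2 TPM in Chd8-/- replicates 1 and 2, against 151.2 and 121.7 TPM in the WT libraries, with 6 of the 8 highest in replicate 2. The 6 red cell markers summed to 8.7 and 1989.7 TPM, against 385.2 and 351.9 TPM, with 5 of the 6 highest in replicate 2. The 6 B and plasma cell markers summed to 45.6 and 303 TPM, against 87.3 and 66.8 TPM, and the 6 CD8 T and NK cell markers to 13.7 and 44.6 TPM, against 41.5 and 31.5 TPM. In each sum of other spleen cells, replicate 1 thus lay below and replicate 2 above both WT libraries. Single markers did not all follow. Of the 6 B and plasma cell markers 3 were highest in replicate 2, and of the 6 CD8 T and NK cell markers 1 was. Lyz2 alone held 1360.3 TPM of the myeloid sum in replicate 2. Alas2 was lowest in replicate 2, at 7.5 TPM, and Adgre1, at 4.3 TPM, lay below both WT libraries there.

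**Figure D1:**
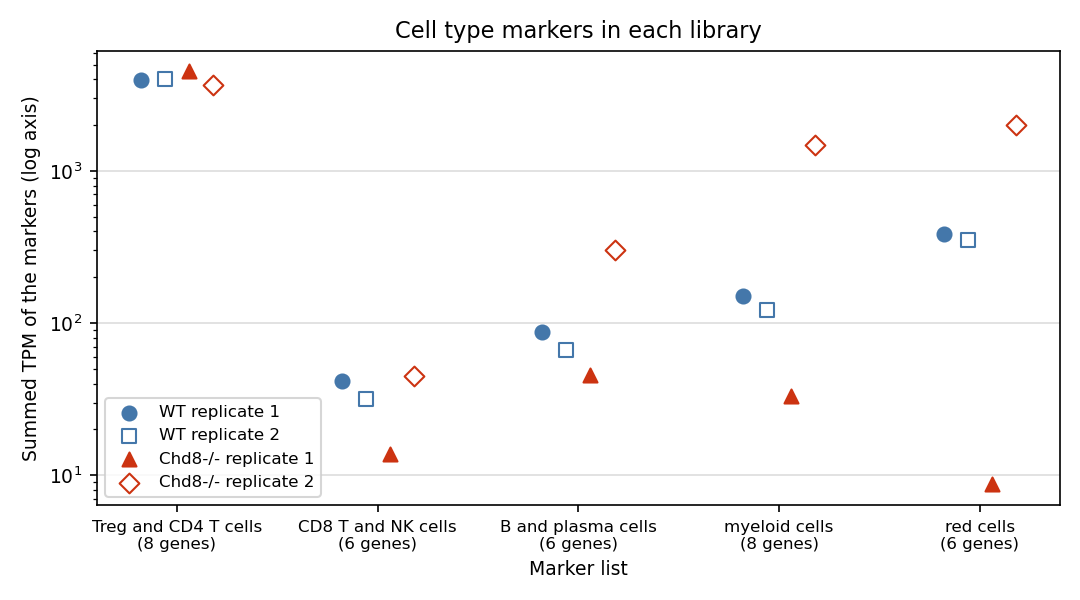
Summed TPM of the marker genes of 5 cell classes (log axis) in each of the 4 libraries. The Treg sums lie close together between 3680.4 and 4510.9 TPM, while the red cell sums run from 8.7 TPM in Chd8-/- replicate 1 to 1989.7 TPM in Chd8-/- replicate 2.

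The p53 protein binds DNA as a tetramer on a response element of 2 adjoining half-sites of 10 bases, each with a C and a G at fixed places around its centre. The element without a spacer was searched on both strands in the RefSeq promoter table of GRCm38.p6, from 250 bases before to 50 bases after each transcription start. Of the 35 genes, 27 had a promoter in the table. A match with at most 1 mismatch over its 20 bases was found in 3 of the 27 (Ccng1, Gtse1 and Rps27l), a share of 11.1%, and in 22 of 27025 genes, or 0.0814%. With at most 3 mismatches it was found in 6 of the 27 (with Aen, Sesn1 and Trp53 added), a share of 22.2%, and in 441 of all genes, or 1.63%. Most of the 35 genes are on the list as known targets, so the shares describe the list and are not a test of it. The closest matches are shown because they set the sequence of the pathway beside the RNA values that follow, with Cdkn1a, the best known p53 target, added from outside the 35 genes. Each is written on the strand of its gene, and capitals mark the central 4 bases of each half-site.
Ccng1: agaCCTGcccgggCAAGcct
Gtse1: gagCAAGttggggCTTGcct
Rps27l: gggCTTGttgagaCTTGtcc
Cdkn1a: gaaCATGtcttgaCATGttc
Aen: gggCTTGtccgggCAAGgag
Sesn1: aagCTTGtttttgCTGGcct
Trp53: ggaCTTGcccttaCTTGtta

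The Ccng1 match (chr11:40755462-40755481, minus strand) stood at positions -195 to -176 from the start site, that of Rps27l (chr9:66946296-66946315, plus strand) at -117 to -98, and that of Cdkn1a (chr17:29090928-29090947, plus strand) at -51 to -32, each with 1 mismatch. The Gtse1 match (chr15:85859945-85859964, plus strand) crossed the start site, also with 1 mismatch. The matches of Aen (chr7:78895937-78895956), Sesn1 (chr10:41887266-41887285) and Trp53 (chr11:69580284-69580303), all on the plus strand, had 3 mismatches. Gtse1, Rps27l, Sesn1, Cdkn1a and Aen have 2 RefSeq start sites each. The matches of Gtse1, Rps27l and Sesn1 belonged to starts downstream of the first base of the gene, at 85859946, 66946413 and 41887439. Those of Cdkn1a and Aen belonged to the start at the first base of the gene. Genes with more than 1 start site were scored by their best window. A match is a likeness of letters and not a measured binding site, and elements further from the start or within introns were not searched.

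**Figure D2:**
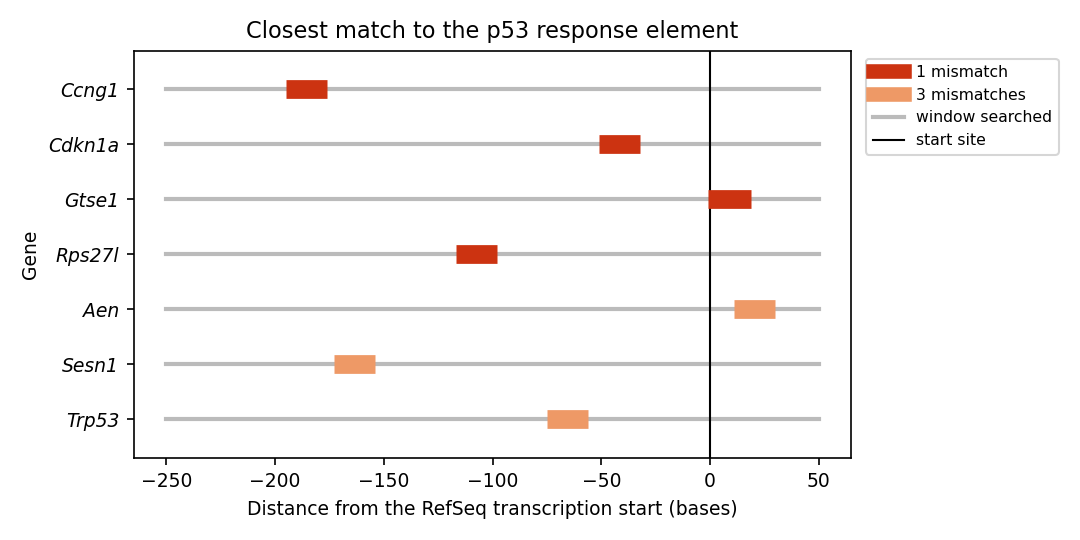
Position of the closest match to the p53 response element relative to the RefSeq transcription start (x axis, in bases) for Cdkn1a and the 6 genes of the pathway with at most 3 mismatches. The matches with 1 mismatch (dark bars) lie from position -195 in Ccng1 to the start itself in Gtse1.

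The 250 bases before the start are given for 2 targets whose RNA values pointed opposite ways, Ccng1 (chr11:40755287-40755536, minus strand) and Sesn1 (chr10:41887189-41887438, plus strand), with the capitals as above.
Ccng1: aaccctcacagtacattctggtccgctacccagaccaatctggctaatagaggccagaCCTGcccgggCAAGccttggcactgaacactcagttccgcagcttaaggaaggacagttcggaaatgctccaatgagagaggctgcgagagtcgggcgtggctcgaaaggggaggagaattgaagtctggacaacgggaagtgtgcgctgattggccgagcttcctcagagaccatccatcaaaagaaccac
Sesn1: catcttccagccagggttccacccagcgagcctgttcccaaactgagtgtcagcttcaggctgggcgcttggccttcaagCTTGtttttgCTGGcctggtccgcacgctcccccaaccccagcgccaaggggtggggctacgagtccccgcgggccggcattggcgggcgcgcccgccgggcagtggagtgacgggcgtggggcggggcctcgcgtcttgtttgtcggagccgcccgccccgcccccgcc

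Across the pathway, the level in Chd8-/- Tregs was higher than in WT Tregs for 24 and lower for 9 of the 33 genes tested, as the difference of the mean log2(TPM + 1). The median difference was 0.41, against -0.15 over all genes tested, of which 5873 were higher and 9367 lower. Against the median of all genes, 26 of the 33 lay above and 7 below. After quantile normalization, which set the median of all genes to 0.00, the median of the pathway was 0.44, with 25 genes higher and 8 lower. A log2 difference of at least 1 was found upward in 7 genes (Psrc1, Perp, Phlda3, Sesn2, Gtse1, St14 and Zmat3), where 5.12% of all genes tested passed it, and downward in 1 gene (Sesn1), where 11.6% did. The mutant libraries both exceeded the WT libraries in 18 genes, against 14.8% of all genes tested, and both lay below them in 4 genes (Mdm4, Ddb2, Sesn1 and Fdxr), against 27.8%. In the other 11 the genotypes overlapped. No gene of the pathway passed an adjusted p-value of 0.05 in limma (0 of 33, and 0% of all genes tested), with a smallest adjusted p of 0.373. At an unadjusted p under 0.05 there were 7 genes upward (Perp, Psrc1, Ccng1, St14, Phlda3, Zmat3 and Sesn2), against 3.9% of all genes tested, and 1 downward (Sesn1), against 6.3%. Perp and Phlda3 had no WT library at 1 TPM and passed the filter through the mutant libraries alone, as 204 of all genes tested did, and Psrc1 and St14 had 1 WT library at that level. Without Perp and Phlda3, 31 genes remained, of which 16 lay above and 4 below WT in both mutant libraries. A log2 difference of at least 1 upward was found in 5, an unadjusted p under 0.05 upward in 5, and the median was 0.29. Of all genes tested, 15036 had a WT library at 1 TPM, and 2057 of these lay above and 4233 below WT in both mutant libraries. Among them 630 had a log2 difference of at least 1 upward and 492 an unadjusted p under 0.05 upward in limma. Their median was -0.16. Adjusted p-values below are from limma over all genes tested, and every standard error is on the log2(TPM + 1) scale with 2 libraries per genotype. The count of genes and the shares describe a list chosen with earlier results of these data known. In RNA from sorted cells, fewer cells of a type and less RNA per cell cannot be told apart.

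**Figure D3:**
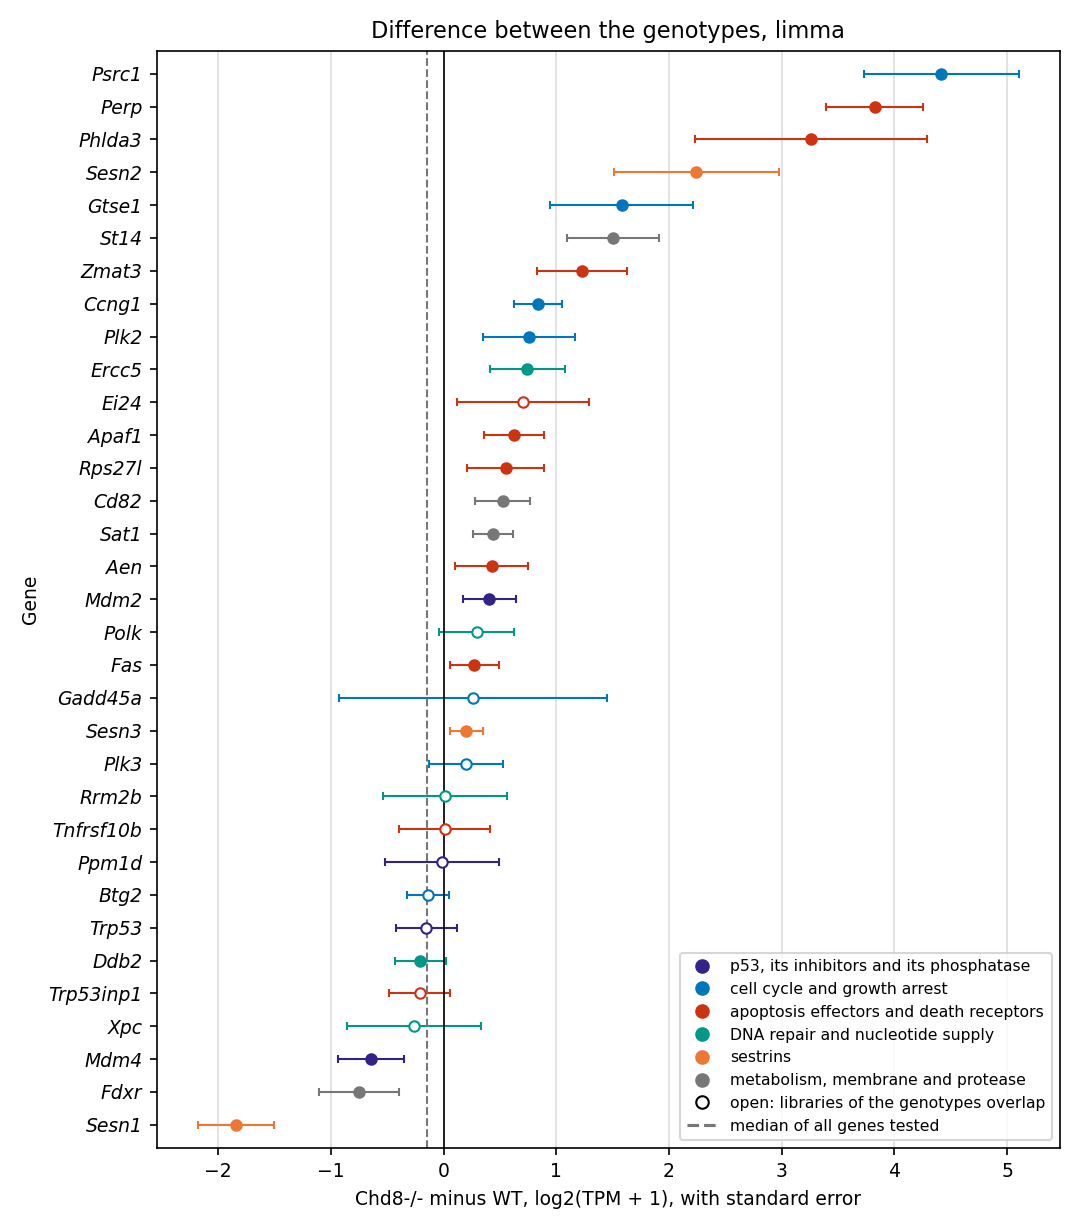
Chd8-/- minus WT difference of the mean log2(TPM + 1) with its standard error (x axis) for the 33 genes tested (y axis, colours give the role, open points mark genes whose genotypes overlap, the dashed line is the median of all genes). The differences run from -1.84 for Sesn1 to 4.42 for Psrc1, and most points lie to the right of the dashed line at -0.15.

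Trp53, on chromosome 11 from 69580348 to 69591873 (plus strand, GRCm38), encodes p53 itself and is regulated mainly at the level of its protein. Its RNA was listed at 89.1 and 60.6 TPM without CHD8 and 88.6 and 75.5 TPM in WT Tregs. The genotypes overlapped, with replicate 1 next to the higher WT library and replicate 2 the lowest of the 4 (log2 difference -0.15, standard error 0.27, adjusted p = 0.869). Mdm2, the ubiquitin ligase that marks p53 for degradation and is itself a p53 target, was listed at 82.5 and 63.0 TPM in Chd8-/- against 52.1 and 56.3 TPM in WT. Both mutant libraries lay above both WT libraries, by less in replicate 2 (log2 difference 0.41, standard error 0.24, adjusted p = 0.615). Mdm4, the relative of Mdm2 that blocks the transactivation domain of p53, stood the other way, at 45.8 and 29.7 TPM against 55.1 and 61.5 TPM. Here the mutant values were both below WT (log2 difference -0.64, standard error 0.30, adjusted p = 0.553). Ppm1d, the phosphatase Wip1 that reverses damage signalling to p53, was listed at 53.3 and 21.8 TPM in the mutant against 29.1 and 40.9 TPM in the WT libraries, with the mutant libraries at both ends of the range. The 2 inhibitors of p53 thus stood on opposite sides of WT, and neither difference passed the test.

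Among the 7 genes of the cell cycle and growth arrest, 4 lay above WT in both mutant libraries, against 14.8% of all genes tested. The other 3 overlapped, and the median log2 difference of the 7 was 0.76. Ccng1, cyclin G1, which feeds back on p53 through Mdm2, lies on chromosome 11 from 40748552 to 40755309 (minus strand). It was among the most abundant genes of the pathway, at 451.6 and 335.3 TPM without CHD8 and 211.1 and 223.0 TPM in WT Tregs. The difference was 1.79-fold on the TPM + 1 scale, and the lower mutant library was well above the higher WT library (log2 difference 0.84, standard error 0.21, adjusted p = 0.430, unadjusted p = 0.0142). Psrc1, a microtubule-associated protein of the mitotic spindle on chromosome 3 from 108383804 to 108388231 (plus strand), held rank 14 of all genes tested by log2 difference. Its levels were 39.8 and 81.1 TPM in Chd8-/- against 0.6 and 3.6 TPM in WT. The WT level near 0 makes its fold depend on the value added (log2 difference 4.42, standard error 0.69, adjusted p = 0.373, or 5.14 with 0.1 TPM and 3.16 with 5 TPM added). Gtse1, a microtubule-binding protein of G2 that limits p53, was listed at 6.1 and 18.1 TPM in the mutant against 2.1 and 3.9 TPM in the WT libraries. Both mutant libraries were higher, replicate 2 by far the more (log2 difference 1.58, standard error 0.64, adjusted p = 0.510, and 0.86 without replicate 2, under the log2 cutoff of 1).

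Plk2, a polo-like kinase, was listed at 11.0 and 13.6 TPM against 5.1 and 9.0 TPM in WT Tregs and did not overlap either (adjusted p = 0.591). The genotypes overlapped for the related kinase Plk3, at 34.5 and 21.7 TPM against 22.1 and 25.5 TPM, and for Btg2, an antiproliferative adaptor, whose Chd8-/- values of 159.7 and 160.7 TPM lay at the level of the lower WT library with 159.7 TPM and below the other with 194.3 TPM. Gadd45a, a growth arrest gene induced by DNA damage, had the widest distance between the Chd8-/- libraries on the log2 scale, at 7.4 and 66.5 TPM without CHD8 and 10.2 and 34.3 TPM in WT Tregs. Replicate 1 was the lowest and replicate 2 the highest of the 4 libraries, the same order as for the summed myeloid and red cell markers. The part of those cells in the Gadd45a values was not tested, and its exons share 238 bases with E230016M11Rik on the opposite strand.

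The apoptosis genes held 12 members, of which 10 were tested. In both mutant libraries 7 lay above WT, against 14.8% of all genes tested, and none of the 10 lay below, against 27.8%. The other 3 overlapped, and the median log2 difference of the 10 was 0.59. The 7 and the median include Perp and Phlda3, whose place above WT was fixed by the filter. Perp, a membrane protein of cell adhesion and p53-dependent apoptosis, lies on chromosome 10 from 18845071 to 18857073 (plus strand) and was listed at 17.7 and 15.1 TPM in the mutant and at 0 and 0.5 TPM in the WT libraries. The mutant libraries were close to each other and apart from WT (log2 difference 3.82). Perp passed the filter through the mutant libraries alone, so that it had to differ, and its difference is given as a description. Phlda3, an inhibitor of Akt on chromosome 1 from 135766085 to 135769134 (plus strand), was also near 0 in WT Tregs, at 0.6 and 0 TPM, but the mutant libraries were far apart at 30.1 and 3.7 TPM. It passed the filter through the mutant libraries alone as well, and the difference was larger in replicate 1 (log2 difference 3.26, and 1.89 without replicate 1). Zmat3, a zinc finger protein that binds RNA, was listed at 68.3 and 36.7 TPM in Chd8-/- against 24.4 and 17.8 TPM in WT. Replicate 1 was again the higher one (log2 difference 1.23, standard error 0.40, adjusted p = 0.465, and 0.79 without replicate 1). Its exons share 177 bases with 4930429B21Rik on the opposite strand.

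The scaffold of caspase activation and the death receptors had smaller differences. Apaf1, the scaffold of the apoptosome, was listed at 24.6 and 24.1 TPM against 14.3 and 16.7 TPM in WT Tregs (log2 difference 0.62, standard error 0.27, adjusted p = 0.530). The death receptor Fas was listed at 59.9 and 59.6 TPM against 44.5 and 54.5 TPM (log2 difference 0.27, adjusted p = 0.706). For both, the mutant libraries were nearly equal and lay above WT. Aen, a nuclease that promotes apoptosis, was listed at 14.4 and 11.3 TPM against 8.9 and 9.6 TPM (log2 difference 0.43, adjusted p = 0.689). Rps27l, a relative of the ribosomal protein Rps27, was listed at 81.6 and 75.7 TPM against 71.2 and 39.9 TPM (log2 difference 0.55, adjusted p = 0.635). Both also lay above WT, Rps27l by little against the higher WT library, and how reads shared between Rps27l and Rps27 were counted was not given in the sources used here. The other 3 genes overlapped between the genotypes. Tnfrsf10b, the mouse TRAIL receptor, was listed at 16.2 and 11.3 TPM against 17.5 and 10.3 TPM. Ei24, a membrane protein of the endoplasmic reticulum, was listed at 76.3 and 28.9 TPM against 38.3 and 21.2 TPM, so that replicate 1 alone lay above WT. Trp53inp1, a nuclear cofactor of p53 in the stress response, was listed at 185.9 and 119.5 TPM against 169.9 and 175.8 TPM, with replicate 2 the lowest of the 4. Eda2r, a receptor for ectodysplasin, had 0.2 and 0 TPM in Chd8-/- and was at 0 in both WT libraries. Dram1, a lysosomal membrane protein of autophagy, reached 1.1 TPM in Chd8-/- replicate 2 and at most 0.5 TPM in the other libraries.

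**Figure D4:**
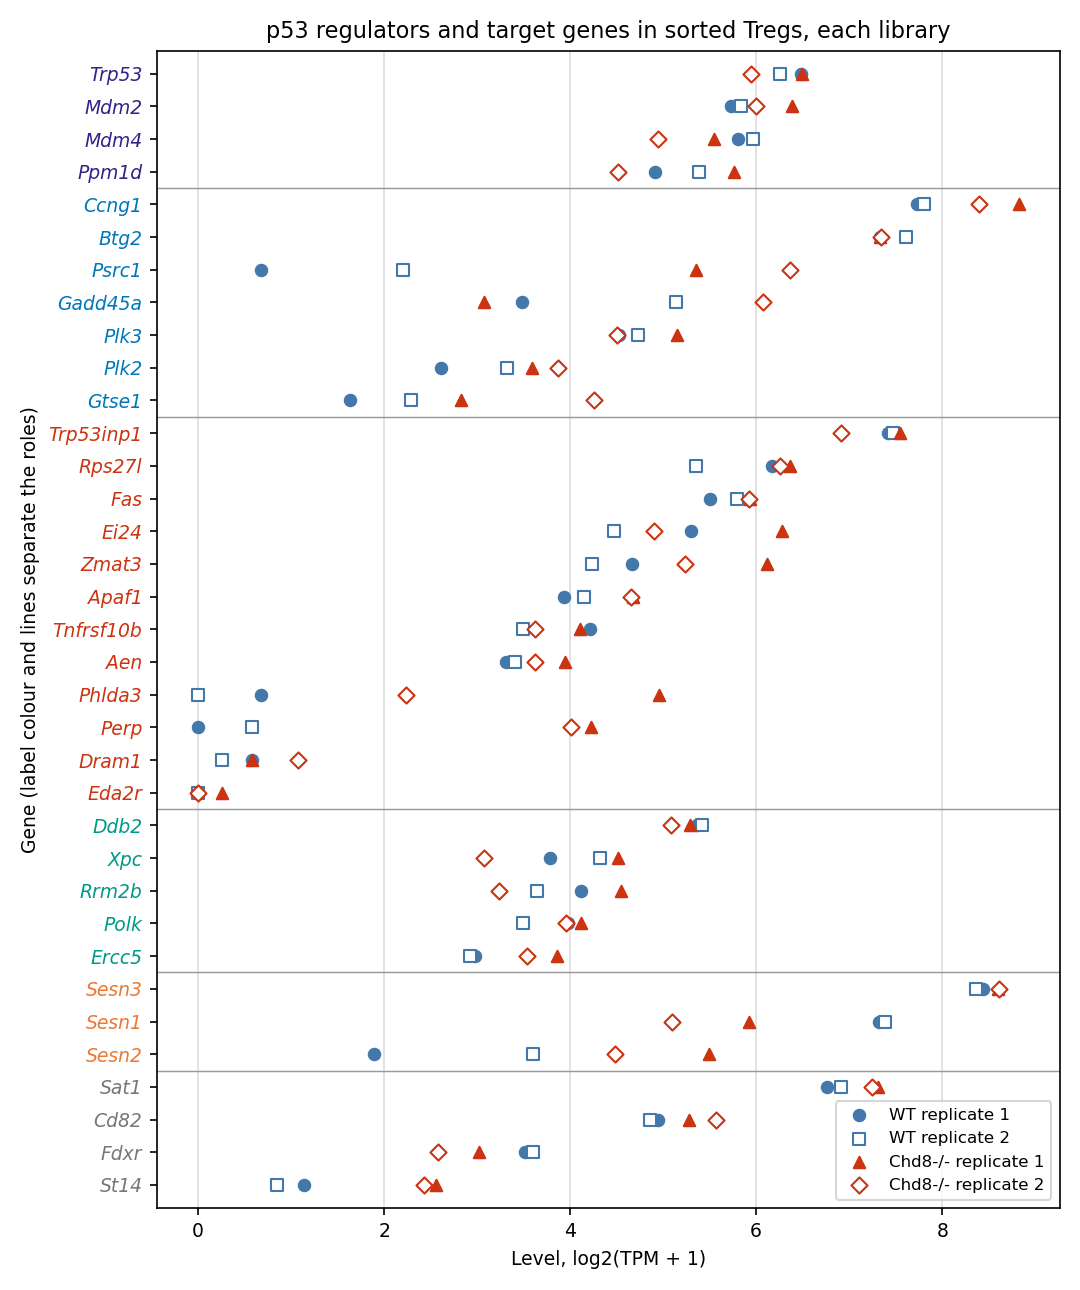
Level of each of the 35 genes as log2(TPM + 1) (x axis) in the 2 WT (blue) and 2 Chd8-/- (red) libraries, grouped by role. Perp, Psrc1, Phlda3, Sesn2 and St14 show the red symbols clear to the right of the blue ones, Sesn1 shows them clear to the left, and Eda2r and Dram1 lie at the bottom of the scale.

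The 5 genes of DNA repair and nucleotide supply had a median log2 difference of 0.01, and 3 of them overlapped between the genotypes. Ercc5, the XPG endonuclease of nucleotide excision repair, lay above WT, at 13.5 and 10.6 TPM against 6.9 and 6.6 TPM (log2 difference 0.74, standard error 0.33, adjusted p = 0.546). Ddb2, which recognises damaged DNA in the same pathway, lay slightly below WT, at 38 and 33 TPM against 40.3 and 41.8 TPM (log2 difference -0.21, standard error 0.23, adjusted p = 0.779), and 679 bases of its exons are shared with Acp2 on the opposite strand. The damage sensor Xpc and the ribonucleotide reductase subunit Rrm2b were higher than both WT libraries in Chd8-/- replicate 1 and lower in replicate 2. In the mutant libraries Xpc had 21.9 and 7.4 TPM and Rrm2b 22.3 and 8.4 TPM, against 12.8 and 19 TPM and 16.3 and 11.5 TPM in WT. For the translesion polymerase Polk, the mutant values of 16.3 and 14.5 TPM reached into the WT range of 10.3 to 14.8 TPM.

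The sestrins, stress proteins that restrain the growth kinase mTORC1, stood on both sides of WT. Sesn1, on chromosome 10 from 41810574 to 41908436 (plus strand), was listed at 59.8 and 33.2 TPM in the mutant against 159.0 and 166.2 TPM in the WT libraries. Both mutant libraries were far below WT, and the 2 WT libraries were close (log2 difference -1.84, standard error 0.34, adjusted p = 0.402, unadjusted p = 0.00423). By this difference it held rank 501 from the lowest of all genes tested. Sesn2, on chromosome 4 from 132492804 to 132510456 (minus strand), stood the other way, at 43.9 and 21.3 TPM without CHD8 and 2.7 and 11.1 TPM in WT Tregs. The WT libraries themselves were well apart for Sesn2 (log2 difference 2.24, standard error 0.73, adjusted p = 0.465). Sesn3, for which FoxO factors are the known regulators, was listed at 387.3 and 388.5 TPM in Chd8-/- against 344.8 and 329.1 TPM in WT. Its mutant libraries lay above WT by little (log2 difference 0.20, standard error 0.15, adjusted p = 0.684). In WT Tregs the order of levels per length was Sesn3, Sesn1 and Sesn2 in both libraries, and in Chd8-/- Tregs the order was the same with Sesn1 and Sesn2 closer, at 59.8 and 43.9 TPM in replicate 1 and 33.2 and 21.3 TPM in replicate 2.

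Of the remaining 4 genes, 3 lay above WT in both mutant libraries, against 14.8% of all genes tested. St14, the membrane protease matriptase on chromosome 9 from 31088590 to 31131811 (minus strand), was listed at 4.9 and 4.4 TPM in the mutant against 1.2 and 0.8 TPM in the WT libraries. The spread within each genotype was small against the distance, but the levels were low (log2 difference 1.50, standard error 0.41, adjusted p = 0.434, or 0.69 with 5 TPM added). Sat1, which acetylates polyamines, was listed at 158.1 and 150.6 TPM against 107.6 and 119.5 TPM, and the tetraspanin Cd82 at 37.7 and 46.6 TPM against 29.7 and 28.0 TPM. Their log2 differences were 0.44 and 0.52 (adjusted p = 0.510 and 0.555). Fdxr, the mitochondrial ferredoxin reductase, was the exception, at 7.1 and 5.0 TPM without CHD8 and 10.4 and 11.1 TPM in WT Tregs, with both mutant libraries lower (log2 difference -0.75, standard error 0.36, adjusted p = 0.558).

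The 2 Chd8-/- libraries were set against the mean of WT one by one, since they differed in the markers of other cells. In 25 of the 33 genes both lay on the same side of the WT mean. These include the 22 genes whose genotypes did not overlap, for which this holds by definition. The same share over all genes tested was not computed, so the count is a description only. Their distance from each other had a median of 0.43 on the log2 scale, against 0.29 between the WT libraries, and over all genes tested these medians were 0.52 and 0.32. Replicate 1 was the lowest and replicate 2 the highest of the 4 libraries, as for the summed myeloid and red cell markers, in 1 of the 33 genes (Gadd45a), against 6.52% of all genes tested. The opposite order was found in 6 genes (Trp53, Ppm1d, Trp53inp1, Plk3, Xpc and Rrm2b), against 11.9%. The part of other cells in these orders was not tested.

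**Figure D5:**
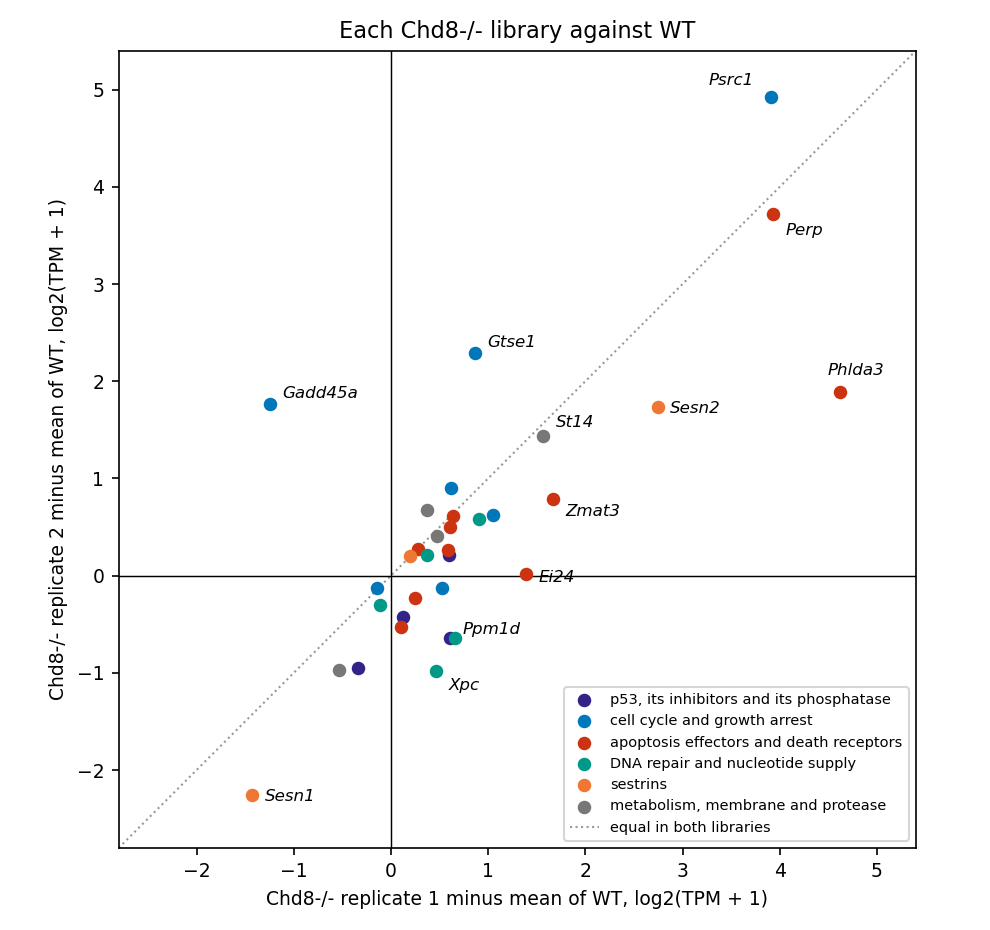
Difference from the mean of WT on the log2(TPM + 1) scale in Chd8-/- replicate 1 (x axis) and replicate 2 (y axis) for the 33 genes tested, with equal differences on the dotted line. Psrc1, Perp, Sesn2, St14 and Zmat3 lie in the upper right and Sesn1 in the lower left, while Gadd45a is low in replicate 1 and high in replicate 2.

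Other genes of the pathway were taken from lists compiled from knowledge of the field. Of 35 further p53 targets, 34 were found and 30 tested, with a median log2 difference of 0.05. In both mutant libraries 10 lay above WT, against 14.8% of all genes tested, 7 lay below, against 27.8%, and 13 overlapped. The 10 include Cdkn1a, Bbc3 and Trp53cor1, which passed the filter through the mutant libraries alone. Cdkn1a, the CDK inhibitor p21, stood apart from this list with 190.7 and 150.1 TPM in Chd8-/- against 0.2 and 0.3 TPM in WT. It held rank 2 of all genes tested by log2 difference (log2 difference 7.09, or 8.93 with 0.1 TPM and 5.05 with 5 TPM added). Like Perp and Phlda3, it had no WT library at 1 TPM and passed the filter through the mutant libraries alone. It thus had to differ, and its difference is given as a description. Pmaip1, the BH3-only protein Noxa, was listed at 37.6 and 47.1 TPM against 19.7 and 23.3 TPM (log2 difference 0.94, standard error 0.26, adjusted p = 0.441). Bbc3, the BH3-only protein Puma, stayed near the floor, at 1.1 and 1.7 TPM against 0.6 and 0.2 TPM, and Bax, the pore former of mitochondrial apoptosis, overlapped between the genotypes, at 25.8 and 13.4 TPM against 11.9 and 19.7 TPM. The long noncoding RNA Trp53cor1, a neighbour of Cdkn1a, was listed at 5.9 and 1.0 TPM against 0 and 0.2 TPM. The lowest differences of this list were those of Ckap2 and Zfp365, -0.69 and -0.68 on the log2 scale, both with overlapping genotypes. A log2 difference of at least 1 was found upward in 2 of the 30 (Cdkn1a and Trp53cor1), against 5.12% of all genes tested, and downward in 0, against 11.6%. Both of the genes upward passed the filter through the mutant libraries alone. None of the 30 passed an adjusted p of 0.05 in limma (0 genes). An unadjusted p under 0.05 was found in 3, Cdkn1a among them, all upward, against 3.9% of all genes tested.

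Of the kinases, partners and other regulators of p53, 27 were tested, with a median of -0.08. In both mutant libraries 3 lay above WT, against 14.8% of all genes tested, 6 lay below, against 27.8%, and 18 overlapped. The checkpoint kinase Chek1 was listed at 12.1 and 10.4 TPM against 6.6 and 4.2 TPM, and Hipk2, a kinase that phosphorylates p53, at 36.5 and 47.2 TPM against 24.3 and 24.2 TPM. The acetyltransferase Kat5 lay below WT, at 7.2 and 3.9 TPM against 13.9 and 11.0 TPM (log2 difference -1.08, standard error 0.42, adjusted p = 0.503), and Ing1 overlapped, with a log2 difference of -0.67. None of the 27 passed an adjusted p of 0.05 in limma (0 genes). At an unadjusted p under 0.05 there was 1, Hipk2, upward, against 3.9% of all genes tested. Since Psrc1 and Gtse1 are also genes of the mitotic cell, 22 genes of G2 and mitosis were set beside them. Of these, 5 lay above WT, against 14.8% of all genes tested, and 2 below, against 27.8%. Their median log2 difference was 0.16. Cdk1 and Bub1 had the largest positive differences, 0.62 and 0.55, while the mitotic cyclin Ccnb2 was listed at 28.0 and 29.6 TPM against 49.8 and 47.0 TPM and the mitotic kinase Plk1 at 11.5 and 14.7 TPM against 21.8 and 19.1 TPM. Of the 22, 0 passed an adjusted p of 0.05 in limma. An unadjusted p under 0.05 was found in 1, Ccnb2, downward, against 6.3% of all genes tested. Without Psrc1 and Gtse1 the median of the remaining 31 genes of the pathway was 0.29.

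A pair of CHD8 peaks is assigned to Ccng1 by the study. They lie 1196729 bases apart, so that they cannot both be at the gene, and their distance from it was not computed because the gene positions used here are of another build. In the mm39 coordinates of the peak tables, the first (chr11:40583076-40583597) had 113.2 and 173.9 TPM in the CHIP-seq of 2 WT mice, and the other (chr11:41780327-41780856) had 86 and 114.7 TPM. The median of the 6971 CHIP peaks was 140.2 and 133.3 TPM, so the first peak lay below the median in mouse 1 and above it in mouse 2, and the other below it in both. An ATAC-seq peak overlapped the first CHD8 peak, with 47 TPM in WT and 49.5 and 46.9 TPM in the Chd8-/- mice. The value of the single WT mouse lay between those of the Chd8-/- mice. No ATAC peak overlapped the other CHD8 peak. The genes of GRCm38 and the peaks of mm39 were not joined, so peaks at the genes are not analysed here. The study itself names Perp, Sesn1 and, from outside the list, Cdkn1a among genes bound by CHD8 whose RNA and accessibility changed. It reports accessibility without CHD8 as higher for Perp and Cdkn1a and lower for Sesn1. It proposes that CHD8 binding regulates them through chromatin remodeling, and these peaks were not re-examined here.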

How the data were processed

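RNA-seq reads were trimmed with Trim Galore 0.4.2 and cutadapt 1.9.1 after FastQC 0.11.7, aligned to mm10 with STAR 2.6.1e, cleared of duplicates with sambamba, and counted on RefSeq genes with featureCounts 1.6.2. The deposited RNA values are TPM, which the authors rounded to 0.1. The deposited ATAC-seq and CHIP-seq values are TPM over peaks in mm39 (HISAT2, MACS2 2.2.7.1). Depth is unknown for these values. The strand setting of the counting was not given in the sources used here, and exons of Apaf1, Ddb2, Dram1, Ei24, Gadd45a, Plk3, Xpc and Zmat3 share bases with genes on the opposite strand.

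Of 35869 table entries, the 4 whose names occur more than once were not used. Genes with at least 1 TPM in 2 or more of the 4 libraries were compared as log2(TPM + 1) in limma 3.58.1 under R 4.3.3 (lmFit and eBayes with a mean-variance trend, a two-sided test, and Benjamini-Hochberg adjusted p-values over all 15240 genes), so that differences of genes with low values are understated. With 2 libraries on each side, the smallest two-sided p of an exact permutation test is 0.333. Where nothing but the mouse separates libraries of a genotype, p-values measure the spread between mice. The limma fit was run on simulated libraries with planted changes and checked for their direction and size, not for the number of calls. The element search was checked on planted elements. Groups were taken from the labels and replicates from their titles. The members, roles and other gene lists were chosen with earlier results of these data known. Genes given library by library are those with a log2 difference of at least 1 in either direction, those with the 6 lowest p-values, p53 with its regulators, and the sestrins. From the other lists Cdkn1a, Bax, Bbc3, Pmaip1 and the 2 largest and 2 lowest differences are named. Further genes with values were chosen after their values were seen. Promoters and positions are from RefSeq (GRCm38.p6), and the promoter table held no entry for Rrm2b, Xpc, Ddb2, Perp, Trp53inp1, Zmat3, St14 and Tnfrsf10b. In the element search, the C and the G of each half-site centre were required on both strands, and the other bases counted as mismatches. Alternatives were 0.1 and 5 TPM added, no filter, a mean of at least 5 TPM, quantile normalization, eBayes without trend, a replicate block, and each library left out in turn. The counts without the genes that passed the filter through the mutant libraries alone were added after seeing the data. Python 3.11.15, numpy 2.4.6, pandas 2.3.3 and matplotlib 3.10.9 were used.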

Additional observations from a re-analysis of the deposited data

How the results depend on the processing

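The count of genes called over the whole table was 0 in limma under each alternative but 1. With a mean of at least 5 TPM required, 11351 genes were tested and 2, Cdkn1a and Mir7649, passed, neither of them among the 33. Cdkn1a reached that mean through the mutant libraries alone. The smallest adjusted p of the pathway lay between 0.204 and 0.971 with a library left out, and was 0.552 with the replicate block. Same-numbered libraries did not deviate together (r = -0.01 across genes), which cannot exclude a shared litter or day. No pairing is given in the sources used here, so the block pairs libraries by their number alone. With it, 1336 genes had an unadjusted p under 0.05, and the count of calls stayed at 0. The median of the pathway was 0.41 with the block, 0.44 after quantile normalization, which moved the median of all genes from -0.15 to 0.00, and 0.32 with 5 TPM added. It lay between 0.26 and 0.59 with a library left out. Under quantile normalization 20 genes lay above and 6 below WT in both mutant libraries, against 21% and 21.3% of all genes tested. With a library left out, between 18 and 26 lay above, between 5 and 10 below, between 7 and 9 passed a log2 difference of 1 upward and between 1 and 2 passed it downward. The same shares of all genes tested ran from 22% to 32.5% above, from 38% to 52.7% below, from 6.49% to 9% upward and from 9.49% to 20.4% downward. The count below WT was 10 without Chd8-/- replicate 1, where 52.7% of all genes lay below, and the count past the cutoff downward was 2 without Chd8-/- replicate 2. Fewer libraries per genotype make separation easier.

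The direction turned for Ppm1d after quantile normalization (0.10). With 1 library left out, it turned for 9 genes, whose log2 differences ran from -0.43 to 0.12 for Trp53, from -0.64 to 0.61 for Ppm1d, from -1.24 to 1.76 for Gadd45a, from -0.35 to 0.36 for Tnfrsf10b, from -0.53 to 0.10 for Trp53inp1, from -0.12 to 0.52 for Plk3, from -0.28 to 0.0045 for Btg2, from -0.98 to 0.46 for Xpc and from -0.65 to 0.66 for Rrm2b. The library whose absence turned it was Chd8-/- replicate 2 for Trp53, Ppm1d, Gadd45a, Trp53inp1 and Xpc, Chd8-/- replicate 1 for Tnfrsf10b, Plk3 and Rrm2b, WT replicate 1 for Gadd45a, and WT replicate 2 for Ppm1d, Tnfrsf10b, Btg2, Xpc and Rrm2b. The cause was not tested. All of these genes overlapped between the genotypes with the 4 libraries. Under the other alternatives no direction of the 33 genes turned. The alternatives foreseen for peaks at the genes were not run, because gene positions of the build of the peaks were not used here. The depth behind the values is unknown, so the limit it sets could not be measured.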
